A study of Danio rerio with 4 samples.

Results

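The tubulin gene family was followed in GFP-positive retinal cells of adult zebrafish, in progenitors at 4 days after injury set against Muller glia of the uninjured retina. The family was taken as every non-control array probe whose name in the files, or the current symbol of its RefSeq accession, starts with tuba, tubb or tubg. The rule found 12 named genes, with 20 of 21495 probes. Of these probes, 18 stand for 10 tubulin genes (10 alpha, 7 beta and 1 gamma probe). The other 2, tubgcp2 and tubgcp3, code for proteins of the complex that holds gamma-tubulin and are not tubulins. All 20 passed the filter on dim probes, and on each of the 4 arrays both spots of each member were well above background by the scanner software's call. A current zebrafish gene table lists 11 alpha, 7 beta and 1 gamma gene, of which 7, 2 and 1 had a probe by the rule. No probe was named tuba1a, the gene whose promoter drives the transgene in the progenitor samples.

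Progenitors that arise from Muller glia came from the 1016 tuba1a:gfp line, in which the tuba1a promoter drives GFP and were sorted 4 days after injury by needle (30 gauge), on 2 arrays whose fish were 7 and 8 months old. Muller glia, which span the retina radially and support its neurons, were sorted from uninjured gfap:gfp fish, in which the gfap promoter drives GFP (n = 2 arrays, at 7 months of age). Since the progenitor gate reads the promoter of a tubulin gene, the groups differ in the reporter that selected the cells as well as in injury, and the 2 cannot be told apart. Nothing in the labels says that the duplicates came from separate pools of fish, so the p-values rest on a spread between arrays that could be technical.

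Alpha- and beta-tubulin pair into the dimers from which microtubules are built, and gamma-tubulin, held in a ring-shaped complex, nucleates them. Vertebrates carry several alpha and beta genes whose proteins differ little outside their C-terminal tails but whose expression differs between tissues. In fish retina and brain, particular alpha-tubulin genes are known for high expression in developing and regenerating neural cells, which is why the tuba1a promoter serves as a reporter of injury-responsive glia. Dividing cells also use tubulin for the spindle.

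Signals are given as multiples of each array's 75th percentile signal, or as log2 of that multiple. Differences are progenitors minus glia on the log2 scale with the standard error from limma, and p-values are limma's, adjusted by Benjamini-Hochberg over all 16596 probes tested, with a threshold of 0.05. The 75th percentile itself was 4816 and 4899 intensity units on the progenitor arrays and 4289 and 4455 on the glia arrays, and 71.7% to 82% of spots were well above background. Log2 signals over tested probes correlated at r = 0.9983 between the progenitor arrays and 0.9986 between the glia arrays, against 0.9688 to 0.9701 between groups. Glutamine synthetase (glula), a Muller glia marker, was bright in both groups, at 5.89 and 5.92 in progenitors and 6.01 and 6.05 in glia on the scaled log2 axis. The proneural marker ascl1a stood at 2.69 and 2.67 in progenitors and -2.71 and -2.56 in glia.

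Tubulin probes were mostly higher in progenitors. Of the 20 members 14 were higher, 2 lower and 4 did not pass, against 27.1% higher and 38.5% lower (65.6% in either direction) among all probes tested. The median difference of the members was 0.31, against -0.11 over all tested probes. Differences of at least 2-fold were found for 7 members, all higher, where 7.62% of tested probes were higher and 4.14% lower by that much. The groups did not overlap for any of the 20 members, as was the case for 85.9% of tested probes. The members share targets, since 4 probes stand for tubb4b and 3 each for tubb5 and the tuba1 name, so they are not independent. By gene, all probes were higher for tuba1b, tuba4l, tuba5, tuba8l3, tuba8l4 and tubb4b, probes differed in call for tuba8l2 and tubb5, tuba7l was lower and tubg1 did not pass. The counts depended on scaling: with each array set on its median 8 members were higher and 5 lower, and with arrays set on their spike-in controls 19 were higher and 0 lower, in a fit where 97.9% of all called probes were higher (41.3% as reported).

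**Figure D1:**
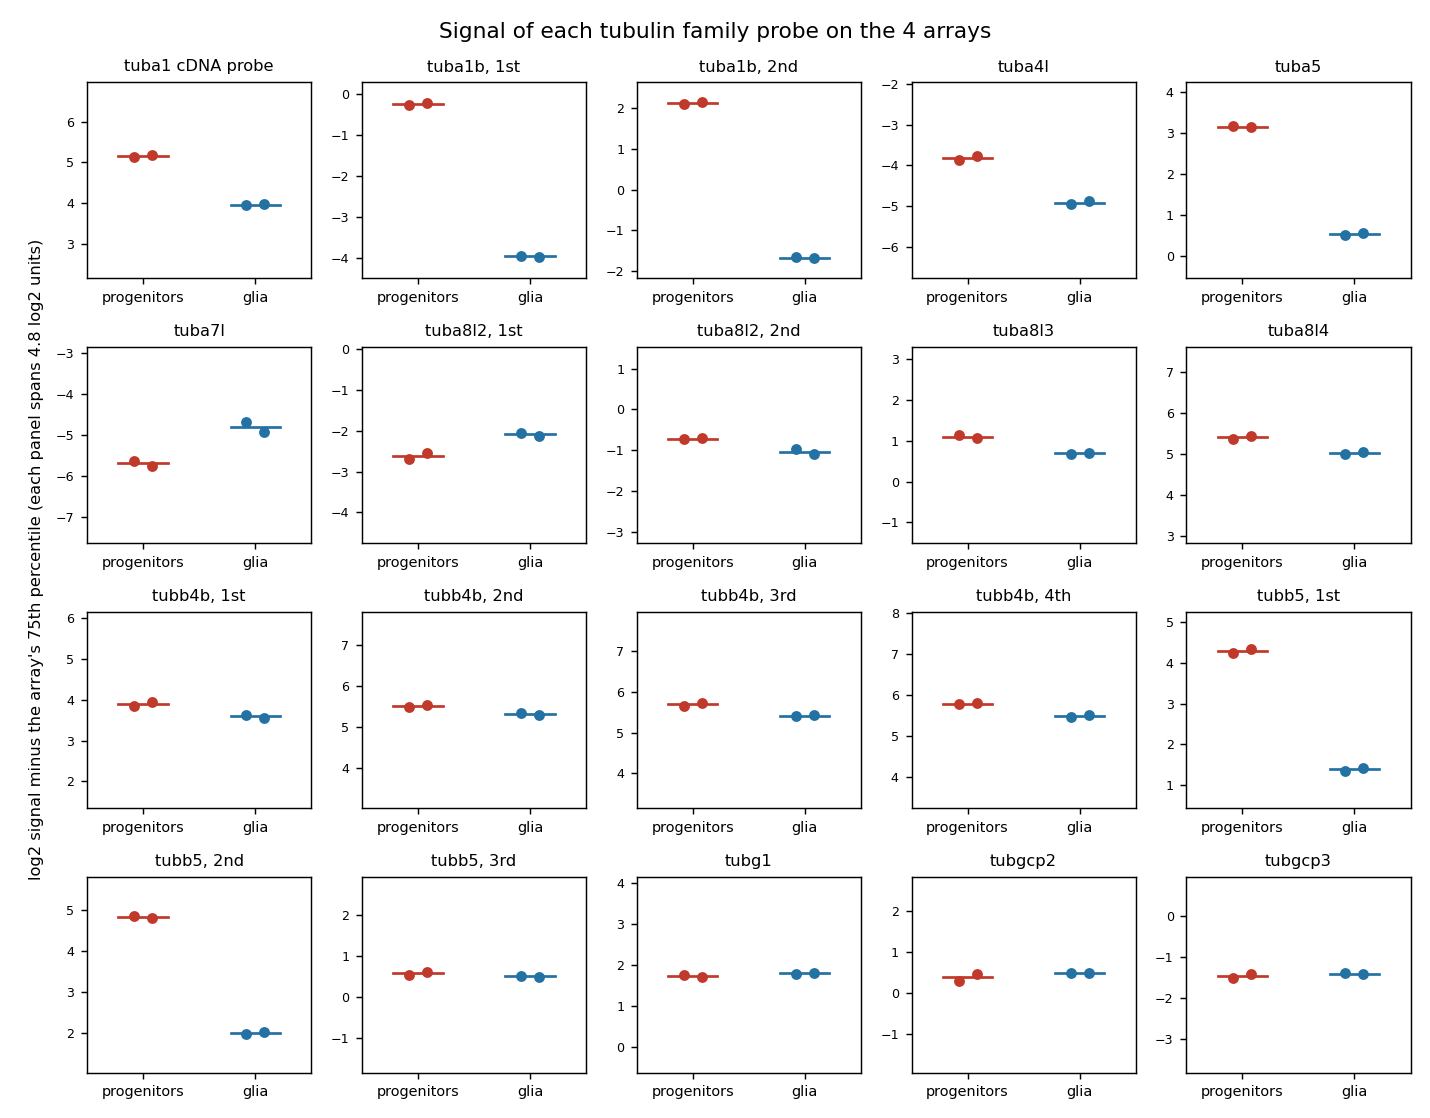
Log2 signal minus the array's 75th percentile for each of the 20 probes, with points for arrays, lines for group means, and every panel spanning the same range of 4.8 log2 units. The first and second tuba1b probes, tuba5 and the first and second tubb5 probes show the widest gaps between progenitors (left) and glia (right), and no probe has overlapping groups.

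**Figure D2:**
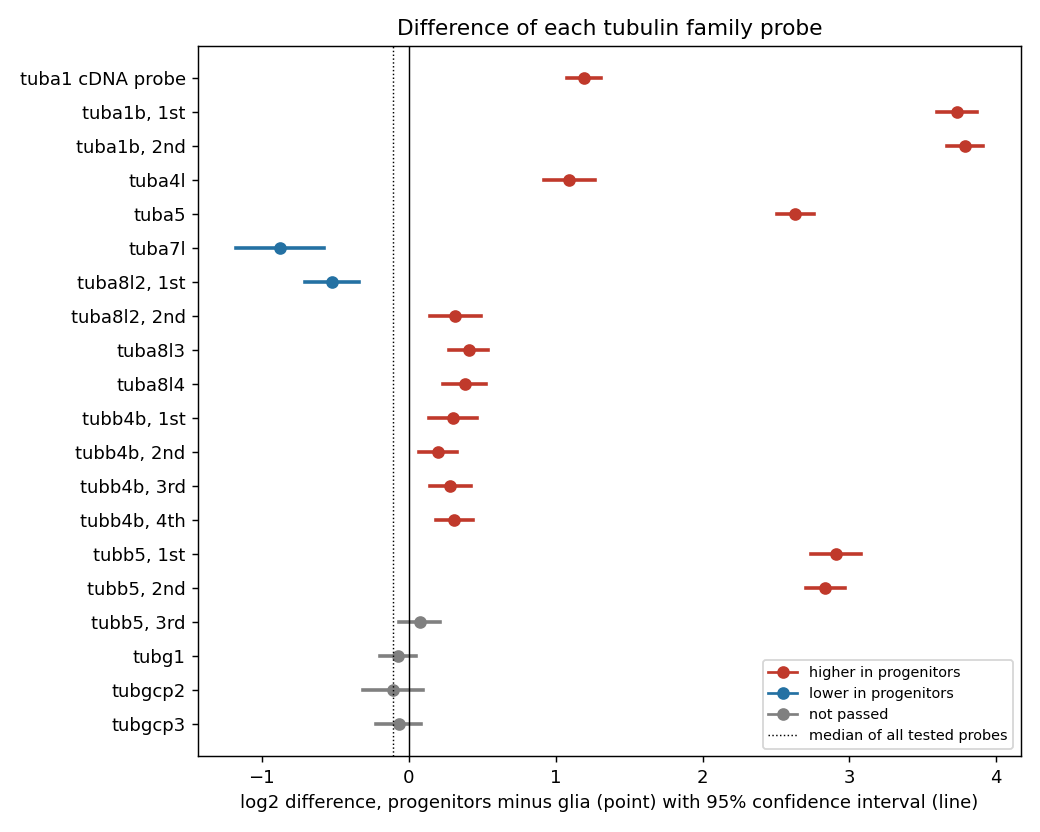
Log2 difference of each probe, progenitors minus glia, with its 95% confidence interval from limma and a dotted line at the median of all tested probes (-0.11). The 5 largest, from tuba1b, tuba5 and tubb5, lie between 2.63 and 3.79, the tubb4b probes lie between 0.20 and 0.31, and the gamma-tubulin and complex probes have intervals that include 0.

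The alpha-tubulin gene tuba1b rose most in the family. It belongs to the group of closely related alpha genes that includes tuba1a, and 2 of its 3 probes carry its RefSeq accession. The first (danRer2 chromosome 23, 38984969 to 38985130, minus strand) had 0.828 and 0.866 times the 75th percentile in progenitors, against 0.0647 and 0.0626 in glia. The second (38983886 to 38983945, minus strand) had 4.29 and 4.43 in progenitors, against 0.318 and 0.314 in glia. Both progenitor arrays were far above both glia arrays at each probe. The differences were 3.73 ± 0.05, or 13.3-fold, and 3.79 ± 0.04, or 13.8-fold (limma, adjusted p = 5.45e-05 for each), so the 2 probes gave nearly the same value although they lie 1083 bases apart. With normexp background correction they stood at 3.14 and 3.64 and still passed.

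The remaining probe is named tuba1 in the files, an older name of tuba1b, but it was designed on a cDNA with no RefSeq accession and lies 5176 bases from the second tuba1b probe (38989062 to 38989121, minus strand). Its signal was 35.3 and 36.1 times the 75th percentile in progenitors, against 15.6 and 15.7 in glia. It was thus higher on both progenitor arrays, but by only 2.29-fold (1.19 ± 0.04, limma, adjusted p = 0.000251). This is the brightest of the probes named tuba1, so a rule that reads each gene at its brightest probe gives 1.19 for tuba1b where the accession-matched probes give 3.73 and 3.79. The gap of 2.60 between the cDNA probe and the second probe is not altered by any scaling that shifts whole arrays. Whether the cDNA probe measures tuba1b was not tested. In the gene table tuba1a is the gene next to tuba1b on chromosome 23, with tuba1c close by, and no sequence was at hand to place the probe in any of them.

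Other alpha-tubulin probes lie in the same stretch, although the files name them only by transcript clusters. A pair at 38986760 to 38986821 and 38986762 to 38986821 (minus strand), which share a cluster with the first tuba1b probe, were higher by 3.58 ± 0.09 and 3.40 ± 0.16 in progenitors (limma, adjusted p = 0.000132 and 0.00045). The listed positions of this pair overlap almost fully, and both were dim in glia (mean scaled log2 -6.56 and -6.75). A probe at 38989920 to 38991655, beyond the tuba1 cDNA probe, was higher by 0.72 ± 0.09 (adjusted p = 0.00469). Ordered along the chromosome, the 4 alpha-tubulin probes within 2.88 kb of the second tuba1b probe differed by 3.40 to 3.79, and those at 5.18 and 6.03 kb by 1.19 and 0.72.

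**Figure D3:**
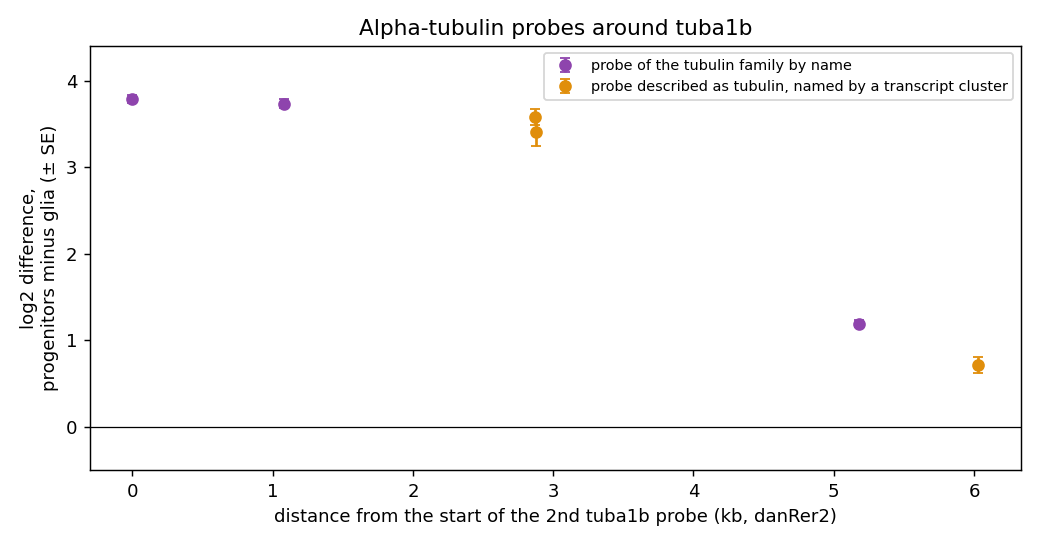
Log2 difference (progenitors minus glia, ± SE from limma) of the 6 tested probes described as alpha-tubulin, against the distance in kb on danRer2 from the start of the second tuba1b probe. The probes up to 2.88 kb away lie between 3.40 and 3.79, whereas those at 5.18 and 6.03 kb lie at 1.19 and 0.72. The probes at 2.87 and 2.88 kb overlap in position and were dim in glia.

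The alpha-tubulin gene tuba5, named tuba8l in the files, had the next highest difference among the alpha genes (chromosome 8, 21911378 to 21911437, minus strand). Its signal was 9.04 and 8.83 times the 75th percentile in progenitors, against 1.42 and 1.46 in glia. Both progenitor arrays were 6.20-fold above glia on average (2.63 ± 0.04, limma, adjusted p = 6.97e-05). A probe that shares its transcript cluster but carries no gene name was also higher, by 2.01 ± 0.14 (limma, adjusted p = 0.0011). That probe was dim in glia (mean scaled log2 -6.60). The probe of tuba4l, an alpha-tubulin gene named for its likeness to mammalian TUBA4, was dim, with 0.0686 and 0.0733 in progenitors and 0.0322 and 0.0343 in glia. It was 2.14-fold higher (1.09 ± 0.06, adjusted p = 0.000714), a call that was lost with normexp (0.37, adjusted p = 0.486).

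The remaining alpha genes moved little or in mixed directions. For tuba8l4 the signal was 41.2 and 43.6 times the 75th percentile in progenitors, against 32.0 and 33.1 in glia, and for tuba8l3 it was 2.19 and 2.09 in progenitors, against 1.60 and 1.63 in glia. Both were higher on each progenitor array, by 0.38 ± 0.05 and 0.41 ± 0.05 (limma, adjusted p = 0.00599 and 0.00383), but with arrays scaled on the median tuba8l4 lost its call (0.16). The dim tuba7l probe had 0.0202 and 0.0186 in progenitors, against 0.0389 and 0.0327 in glia, 1.84-fold lower (-0.88 ± 0.11, adjusted p = 0.00425). This was the largest decrease in the family. It was lost with normexp (-1.01, adjusted p = 0.0947) and turned to 0.25 with spike-in scaling.

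For tuba8l2 the 2 probes start only 18 bases apart on an unplaced sequence (76892429 to 76892488 and 76892447 to 76892506, plus strand), and were called in opposite directions. The first had 0.156 and 0.171 times the 75th percentile in progenitors, against 0.239 and 0.231 in glia (-0.52 ± 0.07, limma, adjusted p = 0.00463). The second had 0.604 and 0.613 in progenitors, against 0.511 and 0.467 in glia (0.32 ± 0.06, adjusted p = 0.0146). At each probe the groups were apart, and the differences of the probes lay -0.84 ± 0.09 apart (first minus second). This error combines the standard errors of the 2 probes as if they were independent, although both were read on the same arrays. With spike-in scaling the first turned to 0.60, and the second lost its call with median scaling, with normexp and without either progenitor array (0.33 without the first and 0.31 without the second). The gene therefore has no single direction on these arrays.

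Among beta-tubulins, tubb5 rose strongly at 2 of its 3 probes. In zebrafish tubb5 is a beta-tubulin gene expressed in the developing nervous system. The first probe (chromosome 20, 10203655 to 10203714, minus strand) had 19.0 and 20.3 times the 75th percentile in progenitors, against 2.55 and 2.70 in glia. The second, whose listed position covers only 12 bases beside it (10203605 to 10203616), had 29.0 and 28.0 in progenitors, against 3.92 and 4.06 in glia. Both were about equally raised, 7.50-fold (2.91 ± 0.06, limma, adjusted p = 9.57e-05) and 7.14-fold (2.84 ± 0.05, adjusted p = 6.90e-05). The third probe, designed on an Ensembl transcript that also bears the tubb5 name, lies 2845 bases from the first (10206500 to 10206559). It had 1.45 and 1.53 in progenitors, against 1.44 and 1.39 in glia, and did not pass (0.08 ± 0.05, 95% interval -0.06 to 0.22, adjusted p = 0.248). It stood at -0.15 with median scaling, and passed at 1.20 with spike-in scaling, which moved all 3 probes alike. Its interval excludes the rise measured at the other probes.

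The beta-tubulin gene tubb4b, older name tubb2, whose mammalian counterpart is widely expressed and contributes to the axonemes of cilia, was bright in both groups and slightly higher in progenitors. The fourth probe (chromosome 14, 4324753 to 4324812, plus strand) had 54.9 and 55.6 times the 75th percentile in progenitors, against 43.8 and 45.3 in glia, a 1.24-fold difference (0.31 ± 0.04, limma, adjusted p = 0.0065). The second and the third probe start 7 and 4 bases before it and gave 0.20 ± 0.05 and 0.28 ± 0.05. The first, 650 bases before it, gave 0.30 ± 0.06. All 4 passed, but the rise depended on scaling: with each array set on its median the second probe stood at -0.02 and the others between 0.06 and 0.09, none of them passing. With normexp the first, the second and the third probe kept differences of 0.36, 0.20 and 0.31 but did not pass (adjusted p = 0.0753, 0.134 and 0.0523). The second probe also lost its call in each fit that left out an array (0.18 to 0.22), the first without glia replicate 2 (0.27) or progenitor replicate 2 (0.26), and the third without glia replicate 1 (0.27).

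The gamma-tubulin gene tubg1 did not pass in either direction. Its signal was 3.36 and 3.25 times the 75th percentile in progenitors, against 3.47 and 3.47 in glia (-0.07 ± 0.04, 95% interval -0.19 to 0.05, limma, adjusted p = 0.223). The complex subunit genes tubgcp2 and tubgcp3, which join gamma-tubulin in its ring, stood at -0.11 ± 0.07 (95% interval -0.31 to 0.10, adjusted p = 0.263) and -0.07 ± 0.06 (-0.22 to 0.09, adjusted p = 0.33). Each of these 3 lay close to the median of all tested probes, and each passed as lower with median scaling (-0.29, -0.33 and -0.29) and as higher with spike-in scaling (1.05, 1.02 and 1.06). With quantile normalization tubgcp3 passed as lower (-0.17), while tubg1 (0.03) and tubgcp2 (-0.06) did not pass. The intervals exclude a rise of the size seen at tuba1b, tuba5 or the first tubb5 probes when arrays are scaled on the 75th percentile.

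**Figure D4:**
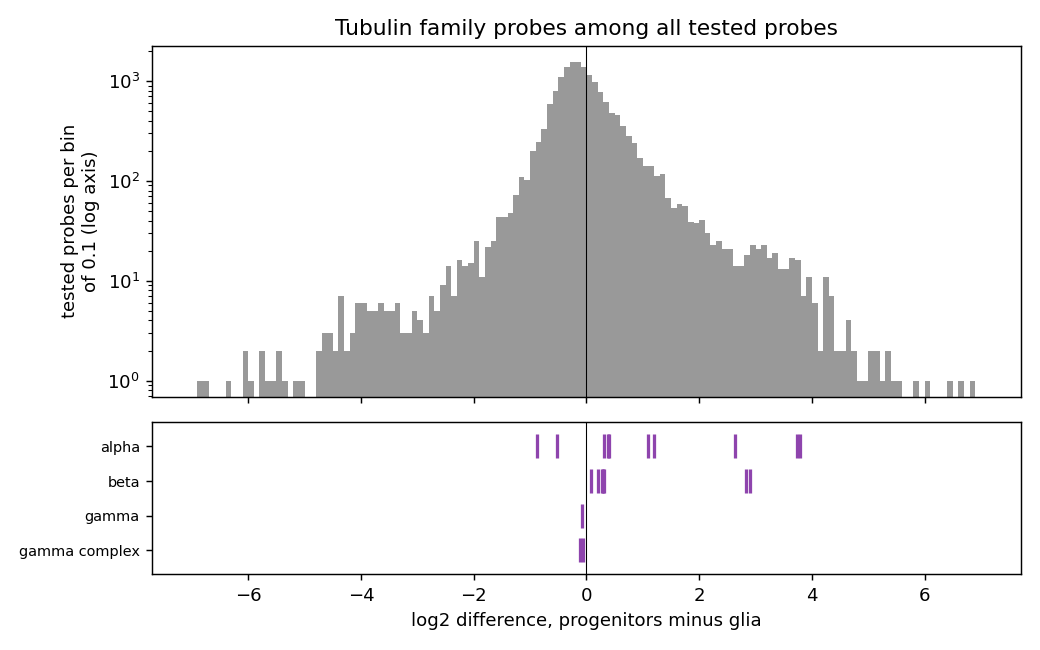
Histogram of the log2 difference, progenitors minus glia, of all 16596 tested probes (log count axis), above ticks for the 20 members by class. Alpha and beta ticks reach 3.79 and 2.91, in the upper tail, while the gamma-tubulin and complex ticks lie between -0.11 and -0.07 at the bulk of the histogram.

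**Figure D5:**
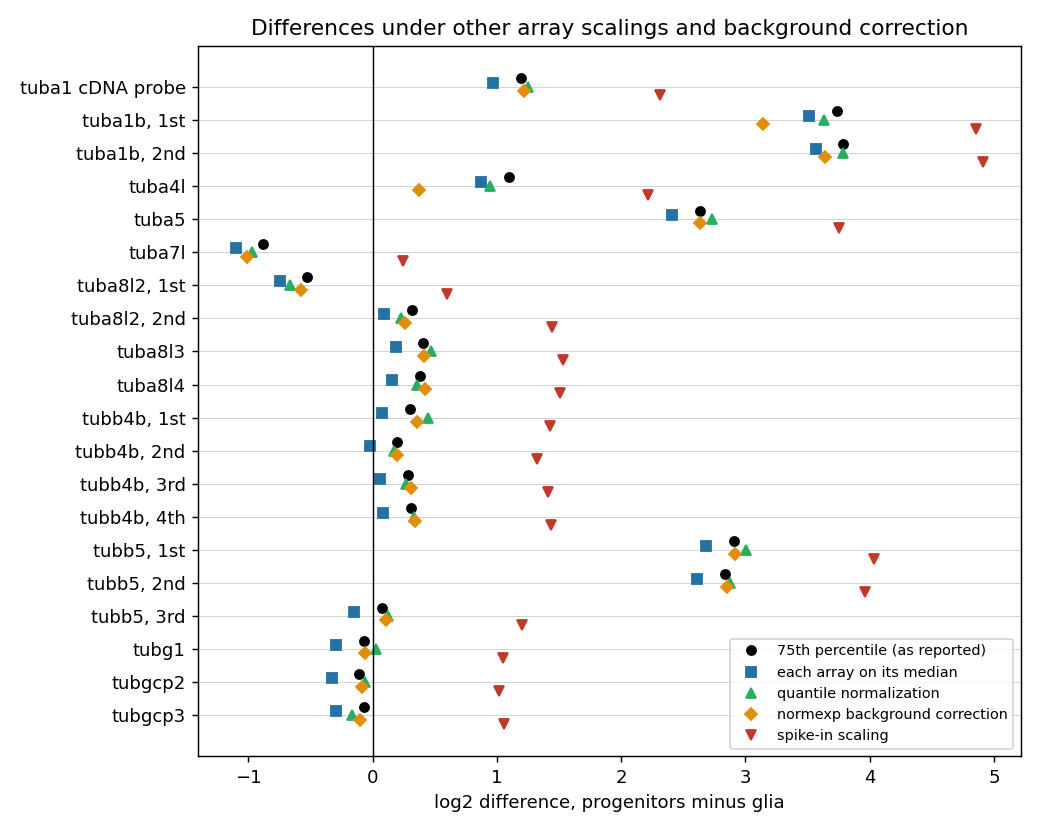
Log2 difference of each member, progenitors minus glia, as reported, with arrays scaled on the median or on spike-in controls, with quantile normalization, and with normexp background correction. The first and second tuba1b probes, tuba5 and the first and second tubb5 probes stay above 2.4 throughout, the tuba1 cDNA probe lies between 0.97 and 2.32, whereas tuba7l and the first tuba8l2 probe turn from negative to 0.25 and 0.60 with spike-in scaling.

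Partner genes of the microtubule system, from lists chosen with earlier results known, did not follow the tubulins as a body where they could be read. Many listed genes had no probe by name. Those found were 5 of 14 folding cofactors, 8 of 26 modifying enzymes and 11 of 28 plus-end and severing proteins. In the gamma-tubulin complex and augmin list 10 of 19 were found. Among all named genes tested, read at their brightest probe, 28.3% were higher and 39.8% lower. Folding cofactors and their helpers, which assemble the tubulin dimer, were split, 2 of the 5 tested genes being higher and 2 lower around a median of 0.04. The prefoldin subunit gene pfdn6 (0.24 ± 0.05, limma, adjusted p = 0.0199) and the chaperonin helper gene pdcl3 (0.22 ± 0.04, adjusted p = 0.0154) were higher. Both lost their calls with median scaling (0.02 and 0.00) and with normexp (0.28 and 0.26). They also lost them without glia replicate 1 (0.20 and 0.23) or progenitor replicate 1 (0.26 and 0.20), pfdn6 without progenitor replicate 2 (0.23) and pdcl3 without glia replicate 2 (0.21). The cofactor regulator gene arl2 (-0.36 ± 0.05) and the cofactor gene tbcc (-0.29 ± 0.06) were lower. Both lost their calls with normexp (-0.32 and -0.29), and tbcc also without glia replicate 2 or progenitor replicate 1 (-0.24 in each). Enzymes that modify tubulin gave 4 lower and 0 higher genes among 7 tested (median -0.20). They were led by ttll1, the catalytic subunit of a tubulin polyglutamylase complex, at 0.744 and 0.752 times the 75th percentile in progenitors, against 1.53 and 1.60 in glia (-1.06 ± 0.05, adjusted p = 0.000419), followed by its partner gene tpgs2 (-0.32 ± 0.04) and the carboxypeptidase gene agbl5 (-0.30 ± 0.05), whose call was lost with normexp (-0.27).

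In the gamma-tubulin complex and augmin list 3 of 6 tested genes were higher and 1 lower, the 2 that did not pass being tubgcp2 and tubgcp3. Of the 3 higher genes haus4 could not have been called lower, as given below. Another 4 genes of the list, haus2, haus3, haus6 and tubgcp5, were not well above background in either group and were not tested. The augmin subunit gene haus5 was higher by 3.33 ± 0.18 (limma, adjusted p = 0.000618) and nedd1, which recruits the gamma-tubulin ring, by 1.20 ± 0.04 (adjusted p = 0.000246). The augmin gene haus4 was not well above background in glia (means -4.49 in progenitors and -9.30 in glia, limma, adjusted p = 0.00083). In the fit as reported haus4 was at least 13.8-fold higher in progenitors. The haus4 and haus5 calls were lost with normexp, where the log2 differences were 0.94 and 1.38. The bound on haus4 thus did not hold with normexp. That setting adds 50 units to every signal, which by itself narrows the ratios of dim probes, so it cannot decide the bound. The centrosomal gene cdk5rap2 was lower (-0.30 ± 0.08, adjusted p = 0.0373), a call lost without any single array (-0.23 to -0.38). The cdk5rap2 call was also lost with normexp (-0.51), with no filter on dim probes and with the replicate block (-0.30 in each). Among plus-end and severing proteins 2 of 9 were higher, the spindle gene tacc3 by 3.01 ± 0.04 and the end-binding gene mapre1a 2.14-fold (adjusted p = 0.00056). The 4 lower genes there included its paralog mapre3b (-0.71 ± 0.04). Of the microtubule-associated proteins, 5 of 34 listed genes were found by name and 3 tested, with tppp3 higher (0.47 ± 0.07), map9 lower (-0.35 ± 0.05) and eml1 at 0.10 ± 0.06. The tppp3 and map9 calls were lost with normexp (0.20 and -0.72), and that of map9 also with the deposited table (-0.26). Epsilon-tubulin (tube1), a tubulin of centrioles outside the rule, was not well above background in glia, so it could not have been called lower. Its progenitor signal exceeded that of glia at least 6.73-fold in the fit as reported (limma, adjusted p = 0.000829). The tube1 call was lost under normexp, where the log2 difference was only 0.26, below this bound. The 50 units added there narrow the ratio of so dim a probe, so normexp cannot decide the tube1 bound either. All 12 lower calls in these lists turned above 0 with spike-in scaling.

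Markers of the cells a sorted retinal sample could hold moved as well, and within a sorted sample fewer cells of a type and less RNA per cell cannot be told apart. Over all named genes tested, 28.3% were higher and 39.8% lower at their brightest probe. Tubulins are abundant in neurons. Of 10 neuron and ganglion cell markers tested, 4 were higher and 4 lower (median -0.08), and their summed scaled signal was 106 and 108 in progenitors, against 110 and 109 in glia. Among them gap43, a growth-cone gene, was 8.53-fold higher (limma, adjusted p = 5.7e-05), and isl2b (0.75), elavl3 (0.60) and inab (0.16) were also higher. The lower markers were pou4f2 (-0.60), pou4f1 (-0.58), rbpms2b (-0.38) and snap25b (-0.28). The near-equal sums thus hold markers that moved in both directions, and most of each sum came from snap25b. Proliferation and progenitor markers had 7 of 9 higher and 1 lower (mki67, whose other probe was higher), with a summed signal of 25.6 and 25.7 in progenitors, against 5.05 and 5.08 in glia. Of the higher ones, lin28ab was not well above background in glia, so it could not have been called lower. Leukocyte markers had 7 of 9 higher and 1 lower, with sums of 67.0 and 62.8 in progenitors, against 25.2 and 24.9 in glia. Most of each leukocyte sum came from apoc1. Cone markers had 10 of 11 lower (sums 415 and 425 in progenitors, against 706 and 686 in glia), rod markers 5 of 5 lower (237 and 238 in progenitors, against 292 and 285 in glia) and erythrocyte markers 5 of 5 lower (32.9 and 33.8 in progenitors, against 65.0 and 64.2 in glia). Nearly all of each erythrocyte sum came from hbba1. Surface epithelium markers had 7 of 8 lower and 1 higher, around a median difference of -3.21. Of the lower ones, cldne was not well above background in progenitors, so it could not have been called higher. In the fit as reported cldne was at least 1.16-fold lower there. The sums of the list were 13.6 and 13.3 in progenitors, against 21.4 and 21.2 in glia. Most of the progenitor sums came from krt8, the higher marker (1.69 ± 0.04), so the sums understate the fall of the others. Muller glia markers had 6 of 10 higher and 1 lower (339 and 344 in progenitors, against 251 and 256 in glia), and vascular markers 3 of 4 higher and 1 lower (1.09 and 1.07 in progenitors, against 0.990 and 0.965 in glia). In these lists 0 markers were below background in both groups. The part of any of these cell types in the tubulin differences was not tested.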

How the data were processed

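RNA was measured on 4 single-colour Agilent arrays, 2 per group, 1 sample each. Per the labels, 0.7 µg of RNA was labelled for each array. The deposited intensity values were made, per the file headers, by Feature Extraction 9.5.3.1 (the submitters' processing notes name 9.1), with background subtraction and detrending inside each array and no step between arrays. The authors' separate value table matched a spot's background-subtracted signal for 100% of probes (relative tolerance 0.001). All arrays share 1 slide and 1 scan; whether sorting or labelling differed between groups was not tested.

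Control spots (1417) and outlier spots (0 to 23 per array) were dropped, and intensity was converted to log2, scaled by subtracting the array's 75th percentile, and averaged over the 2 spots of a probe. Probes well above background on both arrays of a group were tested (16596 of 21495) by moderated linear models (lmFit, eBayes; 3.93 degrees of freedom) of limma, version 3.58.1, under R 4.3.3, with data.table (version 1.17.8) reading the files. Replicates differed by 1.46 (progenitors) and 1.27 (glia) times the noise between duplicate spots, and the number of arrays limits the precision. On simulated data for this comparison (16596 probes, 200 changed by 1 on the log2 scale), 79% of the changed probes were recovered, with 9 false calls. Far fewer probes were changed there than the 65.6% called in the real data, so these rates do not carry over to the real fit. The 13 alternatives were median, quantile and spike-in scaling, normexp correction, stricter and no filters on dim probes, an intensity trend, the authors' value table, a replicate block and leaving out each array. The normexp correction added an offset of 50 units to each signal, which by itself narrows the ratios of dim probes.

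Names came from RefSeq accessions in the GRCz12tu gene list (7323 probes), current symbols (598) or older names (2352); 11222 had none. Coordinates are those of the files (danRer2), counted from 1. For dim genes a bound replaces the fold: the bright group's mean set against the dim group's, in which each array contributes its lowest signal well above background or the probe's own, whichever is larger. Members, lists and alternatives were chosen with earlier results of these data known. All members were named, with up to 3 genes per partner list and direction by adjusted p, at the brightest probe. Probes named by transcript clusters were chosen after their values were seen. Probe sequences were not used here. 1 gene that the naming rule allows is not reported here.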

Additional observations from a re-analysis of the deposited data

How the results depend on the processing

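Under 13 alternatives, both tuba1b probes, the tuba1 cDNA probe, tuba5, tuba8l3 and the first and second tubb5 probes kept direction and call. Setting each array on its median shifted all tested probes by -0.22 and gave 8 higher and 5 lower tubulin probes, with 9755 lower probes in all. There the second tubb4b probe stood at -0.023. Spike-in scaling shifted all probes by 1.12 and gave 15477 higher and 340 lower probes and 0 lower tubulin probes, with tuba7l, the first tuba8l2 probe, tubg1, tubgcp2 and tubgcp3 at 0.25, 0.60, 1.05, 1.02 and 1.06. Of all called probes 23.6% were higher with median scaling and 97.9% with spike-in scaling, against 41.3% as reported. Normexp gave 1584 higher and 2336 lower probes, with 9 tubulin probes higher and 1 lower. Quantile normalization gave 4304 higher and 6469 lower probes, with 14 tubulin probes higher and 3 lower, tubgcp3 being added to the lower ones. Without 1 array at a time, 11 to 12 tubulin probes were higher and 2 lower, among 3726 to 3923 higher and 4706 to 5334 lower probes, and the tuba1 cDNA probe stood at 1.18 to 1.21. The deposited table, the unfiltered fit and the replicate block each ended only the call of the second tubb4b probe among the 20 (0.15, 0.20 and 0.20). The cause of these changes was not tested. The labels do not say whether equal replicate numbers pair the arrays. Same-numbered deviations correlated at r = 0.06, which cannot settle it with 2 arrays per group. With the replicate block 13 tubulin probes were higher and 2 lower, among 4156 higher and 5911 lower probes, with the tuba1 cDNA probe at 1.19 ± 0.05. Low signal was not tested as a limit on tuba4l and tuba7l. The stricter filter could not bear on it, since both probes were well above background on every array. Both calls were lost with normexp.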

Other observations

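Beta-tubulin probes that the files name only by transcript clusters or clones, chosen after their values were seen, lie near tubb4b on chromosome 14 and elsewhere. On chromosome 14, 7 such probes lie within 4 kb of the tubb4b probes, and 5 of them were higher in progenitors, by 0.34 ± 0.06 to 0.80 ± 0.10 (limma). The largest of these, at 4322771, was dim, with mean scaled log2 signals of -3.52 in progenitors and -4.32 in glia. The other 2 stood at -0.27 ± 0.23 and 0.16 ± 0.15 and did not pass. Both were dimmer still, the former with means of -6.86 in progenitors and -6.58 in glia. The latter, listed on the minus strand unlike the tubb4b probes, had means of -5.27 in progenitors and -5.42 in glia. Elsewhere, a dim probe on chromosome 11 (start 17848234), described by likeness to chicken beta-5 tubulin, was higher by 2.10 ± 0.20 (adjusted p = 0.00244), with means of -4.63 in progenitors and -6.73 in glia. A bright probe described as beta-tubulin on an unplaced sequence stood at 4.82 in progenitors and 4.79 in glia and did not pass (0.03 ± 0.04, adjusted p = 0.51). On chromosome 23, at a distance from tuba1b, a probe described by likeness to mouse alpha-6 tubulin (start 38736984) was higher by 0.34 ± 0.07 (adjusted p = 0.0204). A dim probe on the other side, described by likeness to mouse alpha-2 tubulin (start 39010905), stood at -0.46 ± 0.21 and did not pass (adjusted p = 0.13). The second probe of ttll1 was lower by far less than the first, at -0.24 ± 0.07 against -1.06 ± 0.05.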
